A study of Mus musculus with 15 samples.

Results

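A group of 8 genes of epithelial injury and of stratified epithelia, Sprr1a, Trim29, Anxa1, Plaur, Lama3, Lamb3, Emp1 and Clu, were followed in scrapings of the mouse colon. They were selected on earlier results of the same heme against control comparison, so their diet difference is given as a description without a test. Membership took every probe set of the array annotated with 1 gene symbol equal to one of these names, which gave 14 probe sets for 8 of the 18194 genes measured. All 8 lay among the 9257 genes with a signal over 20 (4.32 on the log2 scale) on at least 6 arrays, the genes that were tested. Each gene is shown by its brightest probe set unless stated.

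The mice were male C57BL/6, an inbred laboratory strain, aged 11 weeks. All ate a diet rich in fat (40% of energy) and poor in calcium for 14 days. The 6 control mice received it without heme, and the 9 heme mice with heme, the iron porphyrin of red meat, at 0.5 umol per g. Each mouse was hybridised to its own Affymetrix array, and control replicate 5 was not analysed here. The study asked what heme in the diet does to the turnover of the colonic epithelium, as its title states.

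The colon is lined by a single layer of columnar cells, whereas skin and anal canal carry a stratified epithelium that anchors to a laminin sheet through hemidesmosomes and sheds a cornified envelope. Sprr1a encodes a precursor of that envelope, and Trim29 is a tripartite-motif protein of basal stratified cells. Annexin A1, the urokinase receptor Plaur, clusterin and the membrane protein Emp1 are known from injured or regenerating epithelia, and Lama3 and Lamb3 encode chains of the hemidesmosomal laminin.

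The median log2 value of an array was between 3.11 and 3.24, and the number of arrays limits the precision. All 10 colon epithelium markers (Epcam, Cdh1, Vil1 and others) were over the floor, with a mean of 12.34 to 12.49 per control mouse and 12.40 to 12.56 per heme mouse. At an adjusted p of 0.05 (limma), Krt20 (log2 change 0.39) and Vil1 (0.18) were called higher and Epcam (-0.20) lower, and 7 were not called. Of 10 squamous markers on the array, 9, among them Krt5, Krt14 and Trp63, were under the floor in all 15 mice, and the tenth, Krt10, was at 6.44 ± 0.19 in controls and 6.45 ± 0.16 in heme mice. Smooth muscle markers were lower in heme mice for 5 of 5 tested genes (median log2 change -2.0), with means of 5.86 to 9.45 per control mouse and 4.51 to 6.36 per heme mouse. The median is the change of Actg2, which was over the floor in only 3 of 9 heme mice. Myl9 was over it in 5, Myh11 in 6, Tagln in 8 and Acta2 in 9, so these sizes are set partly against background. Control mouse 2 was the highest of all mice for smooth muscle (9.45), fibroblast (9.45) and myeloid markers (10.65). Control mouse 4 stood apart in 3 Hox genes of distal colon position, at 3.19 against 6.81 to 8.94 in all others. In scrapings, fewer cells of a type and less RNA per cell cannot be told apart.

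Heme mice had higher levels of 6 of the 8 genes and lower levels of the remaining 2, Lama3 and Clu. The 6 and 2 were past an adjusted p of 0.05 (limma), where 53.6% of all tested genes were called, 27.2% higher and 26.4% lower; since the genes were picked on this contrast, nothing is read from these counts. In 4 of the 8, Sprr1a, Trim29, Plaur and Anxa1, all heme mice lay above all controls, as 11.2% of tested genes did. None of the 8 had all heme mice below all controls, which was seen for 8.93% of tested genes. The median log2 change of the 8 genes was 0.78, beside -0.01 over all tested genes.

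**Figure D1:**
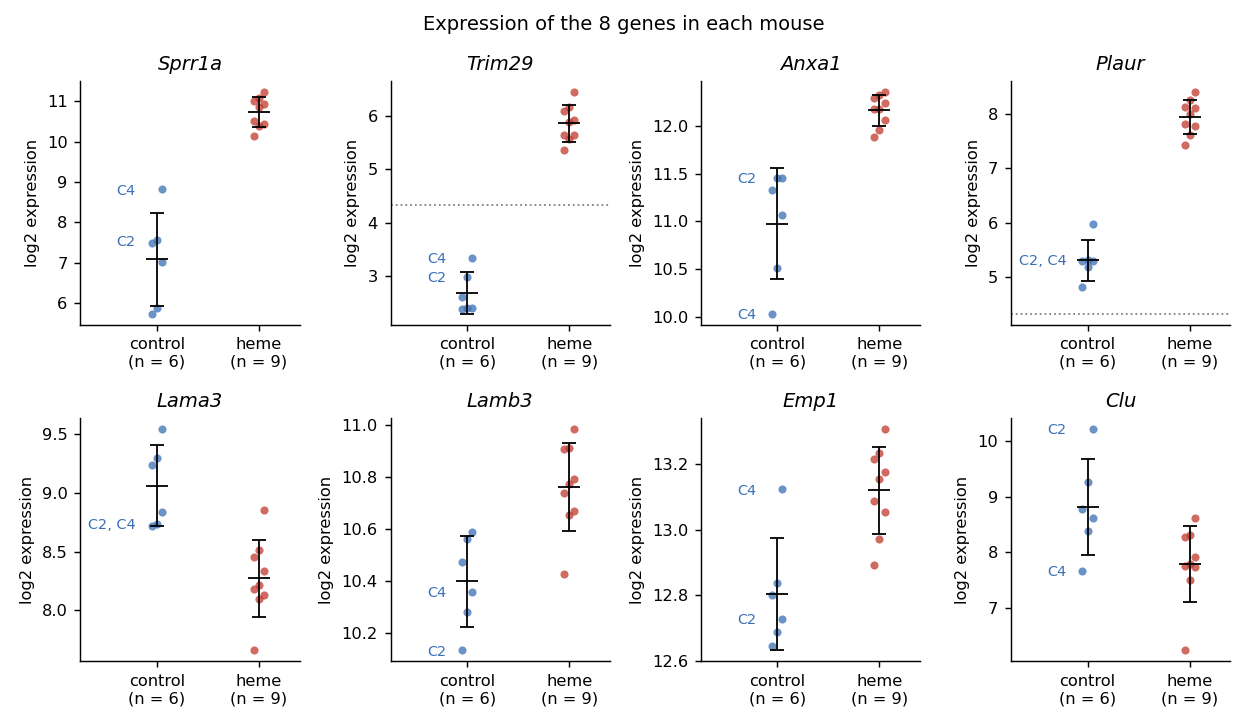
Log2 expression of the 8 genes (y axis, 1 panel per gene with its own range) in the 6 control and 9 heme mice (x axis), with 1 point per mouse, bars for mean and SD, C2 and C4 for control mice 2 and 4, and a dotted line at the floor of 4.32. Sprr1a, Trim29, Anxa1 and Plaur separate the diets without overlap, and the control points of Trim29 all lie under the floor.

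The sequences just before the start sites are shown for the genes with a match to the motif of AP-1 and, for contrast, for Anxa1 without one. AP-1 is a factor family of injury and stress responses that binds the letters TGANTCA. RefSeq (GRCm38.p6) gave start sites for 5 of the 8 genes, 7 in all. The 250 bases upstream of each were searched on both strands for TGANTCA, shown in capitals, and for the TEAD motif GGAATG; none of these promoters held both motifs. Each sequence reads 5′ to 3′ on the strand of the gene.
Sprr1a (chr3:92485882-92486131, minus strand): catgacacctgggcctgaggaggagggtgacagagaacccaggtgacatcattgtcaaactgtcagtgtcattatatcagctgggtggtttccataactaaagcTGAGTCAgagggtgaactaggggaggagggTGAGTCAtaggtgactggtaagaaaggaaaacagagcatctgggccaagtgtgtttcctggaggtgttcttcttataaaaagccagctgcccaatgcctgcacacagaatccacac
Plaur (chr7:24462233-24462482, plus strand): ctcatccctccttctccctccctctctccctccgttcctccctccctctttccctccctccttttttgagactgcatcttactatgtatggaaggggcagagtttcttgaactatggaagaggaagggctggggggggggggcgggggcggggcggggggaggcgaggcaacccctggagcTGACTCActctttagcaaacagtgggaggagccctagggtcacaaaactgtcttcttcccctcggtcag
Emp1 (chr6:135362681-135362930, plus strand): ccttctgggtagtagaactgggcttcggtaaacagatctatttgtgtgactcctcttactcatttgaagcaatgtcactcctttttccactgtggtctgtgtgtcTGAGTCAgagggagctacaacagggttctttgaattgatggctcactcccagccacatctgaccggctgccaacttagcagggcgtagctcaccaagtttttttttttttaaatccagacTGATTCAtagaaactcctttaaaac
Anxa1 (chr19:20390672-20390921, minus strand): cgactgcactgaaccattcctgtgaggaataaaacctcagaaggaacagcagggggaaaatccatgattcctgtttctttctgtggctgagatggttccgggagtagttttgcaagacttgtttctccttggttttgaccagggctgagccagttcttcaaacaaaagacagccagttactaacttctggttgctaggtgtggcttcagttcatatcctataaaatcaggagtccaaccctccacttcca

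Sprr1a held 2 matches, TGAGTCA each time, ending 140 and 110 bases before the start. Emp1 also held 2 at its first start site, TGAGTCA and TGATTCA, and 0 at its second. Plaur held 1, TGACTCA, ending 63 bases before the start. Anxa1 and both start sites of Lamb3 held 0, which says only that these letters are not in these windows. Of 32851 promoters in the RefSeq table, 6.75% held at least 1 such match and 0.338% at least 2; of the 9728 promoters of tested genes, 4.60% and 0.134% did. The TEAD motif was found in Anxa1 and at 1 start site of Lamb3, beside 12.6% of all promoters and 10.2% of those of tested genes. A match is a description of the letters, and binding was not measured.

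Sprr1a, whose product transglutaminases cross-link into the cornified envelope, had the widest difference of the 8. Control mice ran from 5.73 through a median of 7.25 to 8.82 on the log2 scale, and heme mice from 10.14 through 10.85 to 11.23. All heme mice lay above the highest control, control mouse 4, and controls spread more widely (SD 1.16, n = 6) than heme mice (SD 0.37, n = 9). The difference was 3.65 ± 0.37 (log2, SE), or 12.6-fold, the 6th highest of all tested genes. Without control mouse 4, control mouse 2 and heme mouse 6 it was 4.23.

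The other small proline-rich genes and envelope components did not share that size. Of the 9 Sprr genes measured, 7 were under the floor in all 15 mice, among them Sprr1b and Sprr3. Sprr2k was called higher at 0.36 ± 0.11 (SE, adjusted p = 0.0109, limma), but 5 of 6 controls were under the floor and 7 of 9 heme mice over it, so it was tested because of its heme values and its change is set against background. Sprr transcripts resemble each other closely, so the family member behind a probe set is uncertain. Within the list of Sprr and envelope genes, 2 of 6 tested non-members rose, 0 fell and the median change was 0.13. The second riser was Cstb, the protease inhibitor cystatin B, at 0.19 ± 0.05 (adjusted p = 0.0084, limma). Transglutaminase Tgm3 did not pass the test at -0.77 ± 0.84, but without control mouse 4, at 4.59 against 10.06 to 11.69 in the other controls, its change was -1.84 ± 0.32 (adjusted p = 0.00027, limma). Without control mice 2 and 4 and heme mouse 6, Sprr2k no longer passed (0.29 ± 0.13, adjusted p = 0.071, limma). A smooth muscle covariate, the mean of the muscle markers, ended the calls of Sprr2k and Cstb. Sprr2k was then at 0.38 ± 0.17 (adjusted p = 0.0905, limma) and Cstb at 0.22 ± 0.08 (adjusted p = 0.0538, limma). Neither change was smaller than without the covariate, but both SEs were larger. The muscle score itself differed between diets, so the covariate cannot separate muscle content from diet.

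Trim29 went from background to a measurable level. Controls lay between 2.38 and 3.35 with a median of 2.51, and heme mice between 5.36 and 6.45 with a median of 5.89. Every control was under the floor of 4.32 and every heme mouse over it, so the gene entered the tested set through its heme values alone. Against the floor the heme mean was at least 2.90-fold higher. The fitted log2 change of 3.17 ± 0.18 (SE) is set against background and gives no bound.

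In the list of stratified and basal epithelium genes, 6 of 11 tested non-members rose, 1 fell and the median change was 0.30. Of all tested genes 27.2% were higher and 26.4% lower, and the counts of this chosen list are a description. Of its 29 genes measured, 17 were under the floor in all mice. Sfn, stratifin or 14-3-3 sigma, rose by 1.96 ± 0.19 (adjusted p = 8.42e-07, limma), from 8.90 ± 0.56 in controls to 10.85 ± 0.21 in heme mice without overlap. Ly6d, a surface protein of squamous cells, was under the floor in all controls and over it in 8 of 9 heme mice. It was therefore tested because of its heme values alone. Against the floor the heme mean was at least 1.71-fold higher. The groups overlapped, as heme mouse 6 (3.74) was under the floor and below control mouse 2 (3.84). Cldn4, a tight junction claudin, rose by 1.26 ± 0.24 (adjusted p = 0.00047, limma), but 4 of 6 controls were under the floor and the size is set partly against background. Simple-epithelial keratin Krt7 fell by 0.41 ± 0.08 on the log2 scale (adjusted p = 0.00036, limma), with all heme mice below all controls. Keratins of basal stratified cells were at background in both diets: Krt5 was at 2.61 to 3.37 and Krt14 at 2.04 to 2.68, and Trp63, the transcription factor of basal cells, at 2.14 to 2.70. Krt10, a suprabasal keratin, was over the floor in all mice without a difference past the test (0.01 ± 0.09, adjusted p = 0.94, limma). Of this list, 3 rather than 6 were called higher with the smooth muscle covariate, Cldn4 (0.88 ± 0.36, adjusted p = 0.065, limma), Jup and Pkp3 being lost.

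**Figure D2:**
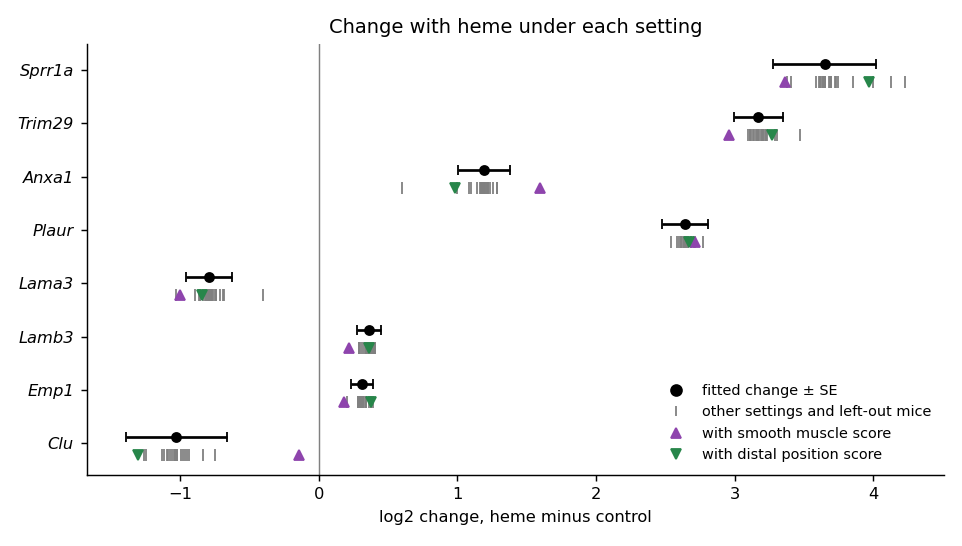
Difference between heme and control mice for each of the 8 genes (x axis, log2 scale): black points with bars for the limma fit and its SE, grey ticks for other settings and left-out mice, and triangles for the smooth muscle and distal position covariates. Sprr1a, Trim29 and Plaur lie at 3.65, 3.17 and 2.64, Lamb3 and Emp1 at 0.36 and 0.32, and Clu reaches from -1.31 with the distal position covariate to -0.14 with the smooth muscle covariate.

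Plaur, the surface receptor that holds urokinase at the cell membrane and promotes plasmin formation, was low in every control and clearly measured in heme mice. Controls ran from 4.80 through 5.29 to 5.98 and heme mice from 7.44 through 8.00 to 8.40. The groups did not overlap, and all 15 mice were over the floor. The difference was 2.64 ± 0.17 (log2, SE), or 6.24-fold, and stayed between 2.54 and 2.77 over 27 alternative settings.

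Several partners of the receptor, but not all, were at background. Its ligand Plau, the other activator Plat and plasminogen itself (Plg) were among 7 of 13 genes of the plasminogen list that were under the floor in all 15 mice. Of 5 tested non-members 1 rose, 2 fell and the median change was -0.32. Lrp1, an endocytic receptor for protease and inhibitor complexes, fell by 0.36 ± 0.08 on the log2 scale (adjusted p = 0.0013, limma). Klk1, tissue kallikrein, fell by 0.32 ± 0.06 (adjusted p = 0.00058, limma), and its groups did not overlap. Plgrkt, a plasminogen receptor, rose by 0.17 ± 0.06 (adjusted p = 0.0218, limma), a call lost without control mouse 2 (0.14, adjusted p = 0.0554) or control mouse 3 (0.15, adjusted p = 0.0547). With the smooth muscle covariate Plgrkt changed by 0.06 ± 0.09 (adjusted p = 0.581, limma), and with array weights by 0.12 ± 0.06 (adjusted p = 0.080, limma).

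Anxa1, a calcium-dependent phospholipid-binding protein and ligand of formyl peptide receptors, was abundant in both diets. Control mice lay between 10.03 and 11.46 with a median of 11.20, and heme mice between 11.89 and 12.36 with a median of 12.18. Every heme mouse was above every control, and the low controls were mouse 4 (10.03) and mouse 1 (10.51). The difference was 1.19 ± 0.19 (log2, SE), or 2.28-fold. These 2 controls were also the lowest in the distal Hox genes (3.19 and 6.81), and with that score as a covariate the difference was 0.99. A second probe set of Anxa1 was at background in all mice (means 1.97 and 1.98), and averaging both gave a difference of 0.60.

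Among the other annexins and their partners, 5 of 8 tested non-members rose, 1 fell and the median change was 0.27. Of all tested genes 27.2% were higher and 26.4% lower, and the counts of this chosen list are a description. Anxa4 rose by 0.39 ± 0.04 (adjusted p = 2.30e-06, limma) and Anxa2 by 0.31 ± 0.05 (adjusted p = 6.51e-05, limma), each without overlap. S100a10, the partner of annexin A2, rose by 0.23 ± 0.05 (adjusted p = 0.00135, limma), again without overlap, but the mean of its probe sets changed by 0.11 (adjusted p = 0.117). Anxa8 rose by 1.74 ± 0.61 (adjusted p = 0.0243, limma) and Anxa3 by 0.75 ± 0.26 (adjusted p = 0.0260, limma), but both had the low controls of Anxa1: mouse 4 was at 4.40 and 8.97 and mouse 1 at 7.29 and 10.10. Without control mouse 4 the changes were 1.01 for Anxa8 and 0.44 for Anxa3, and with the smooth muscle covariate 2.81 and 1.36. Without control mouse 1 the adjusted p-values were 0.055 and 0.061 (limma), and without control mice 2 and 4 and heme mouse 6 Anxa8 changed by 0.91 ± 0.36 (adjusted p = 0.0504, limma). Anxa13, an annexin of intestinal epithelium, moved the other way, by -1.74 ± 0.16 (adjusted p = 6.75e-07, limma), from 8.01 ± 0.10 to 6.27 ± 0.41 with no overlap. Fpr2, a receptor of annexin A1, was under the floor in all mice.

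The laminin chains Lama3 and Lamb3, partners in the same heterotrimer, differed in opposite directions. Lama3, the alpha 3 chain, ran from 8.71 through 9.03 to 9.54 in controls and from 7.66 through 8.21 to 8.85 in heme mice. Of the heme mice 8 lay below all controls, and heme mouse 6 (8.85) lay among them. The difference was -0.79 ± 0.16 (log2, SE), a level 0.579 times that of controls, and without control mice 2 and 4 and heme mouse 6 it was -1.03. The second Lama3 probe set was at background (means 2.51 and 2.50), and averaging both gave -0.40.

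Lamb3, the beta 3 chain, ran from 10.13 through 10.42 to 10.59 in controls and from 10.43 through 10.77 to 10.98 in heme mice. Of the heme mice 8 lay above all controls, and heme mouse 5 (10.43) lay among them. The difference was 0.36 ± 0.09 (log2, SE), or 1.29-fold, and 0.22 with the smooth muscle covariate.

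Of the other laminin chains, 0 of 3 tested non-members rose, 1 fell and the median change was -0.14, while 5 of 10 chains measured were under the floor in all mice. Lamb2, a chain of vascular and smooth muscle basement membranes, fell by 0.69 ± 0.13 on the log2 scale (adjusted p = 0.00046, limma), but changed by -0.33 with the smooth muscle covariate (adjusted p = 0.134). Lamc1, with 4 of 6 controls under the floor, did not pass at 0.50 ± 0.24, but did without control mouse 2 (0.73 ± 0.19, adjusted p = 0.0050, limma). Among receptors and hemidesmosome parts 1 of 7 rose, 1 fell and the median change was 0.09. Integrin alpha 3 (Itga3) rose by 0.31 ± 0.09 (adjusted p = 0.0070, limma). Dystonin (Dst), a hemidesmosomal plakin, fell by 0.38 ± 0.09 on the log2 scale (adjusted p = 0.0021, limma), whereas the mean of its probe sets changed by -0.03 (adjusted p = 0.758). The hemidesmosomal integrin pair did not pass, at -0.18 ± 0.08 for Itga6 (adjusted p = 0.0555, limma) and 0.39 ± 0.20 for Itgb4 (adjusted p = 0.112, limma). Itga6 passed without control mouse 3 (-0.23, adjusted p = 0.0222) or heme mouse 3 (-0.21, adjusted p = 0.0362), and Itgb4 without control mouse 6 (0.53, adjusted p = 0.0351).

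Emp1, epithelial membrane protein 1 of the PMP22 family of tetraspan proteins, was near the top of the array range in every mouse. Controls ran from 12.65 through 12.76 to 13.12 and heme mice from 12.89 through 13.15 to 13.31. The groups overlapped: 5 of 9 heme mice were above all controls, and the highest control was mouse 4. The difference was 0.32 ± 0.08 (log2, SE), or 1.24-fold. A second Emp1 probe set gave 5.96 ± 1.24 in controls and 6.06 ± 0.35 in heme mice. Its difference was 0.10 ± 0.38 in the fit over probe sets. On it, control mice 4 (7.44) and 1 (7.42) were above every heme mouse (highest 6.38), so the difference depends on the mice kept. Without control mouse 4 it was 0.39, beside 0.38 on the brighter probe set. Without control mouse 2 it was 0.05, beside 0.30 on the brighter probe set. The mean of both differed by 0.21, and with the smooth muscle covariate the difference of the brighter was 0.19; neither passed the threshold.

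The relatives of Emp1 were split. Emp2 fell by 0.91 ± 0.14 on the log2 scale (adjusted p = 9.24e-05, limma), from 8.97 ± 0.08 to 8.06 ± 0.37, with all heme mice below all controls. Pmp22 rose by 0.23 ± 0.09 (adjusted p = 0.0403, limma), a call kept in 13 of 27 alternatives. Of the mice left out singly, control mice 1, 4 and 6 and heme mice 1, 2, 4, 6, 8 and 9 each ended it, with changes of 0.17 to 0.23 and adjusted p-values of 0.052 to 0.107 (limma). Those 2 were the tested non-members of this family, 1 up and 1 down with a median of -0.34.

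Clu, the secreted chaperone clusterin, varied widely among mice of either diet (SD 0.86 in controls and 0.68 in heme mice). On its brightest probe set controls ran from 7.67 through 8.70 to 10.23 and heme mice from 6.24 through 7.80 to 8.61. Only 2 of 9 heme mice lay below all controls. The difference was -1.03 ± 0.36 (log2, SE), a level 0.491 times that of controls. The other 3 Clu probe sets gave -0.91, -1.11 and -0.74, and across mice the 4 correlated at r of 0.91 to 0.97.

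Control mouse 2 was the highest and heme mouse 7 the lowest mouse of its diet on all 4 Clu probe sets. Without control mouse 2, which also led the muscle, fibroblast and myeloid marker means, the differences were -0.75, -0.65, -0.81 and -0.40, and that of the brightest was no longer past the threshold. Leaving out control mouse 7 ended the call too, at -0.94. With the smooth muscle covariate the difference was -0.14. Among lipoprotein receptors and other partners of clusterin, 1 of 2 tested non-members rose, 0 fell and the median change was 0.57. Vldlr, a lipoprotein receptor that binds clusterin, rose by 0.70 ± 0.10 (adjusted p = 4.41e-05, limma) without overlap, while Lrp2, the large endocytic receptor megalin, was under the floor in all mice. Apoe did not pass at 0.43 ± 0.45, but did without control mouse 2 (0.91 ± 0.30, adjusted p = 0.0193, limma) and with the smooth muscle covariate (2.10 ± 0.41, adjusted p = 0.00137, limma).

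**Figure D3:**
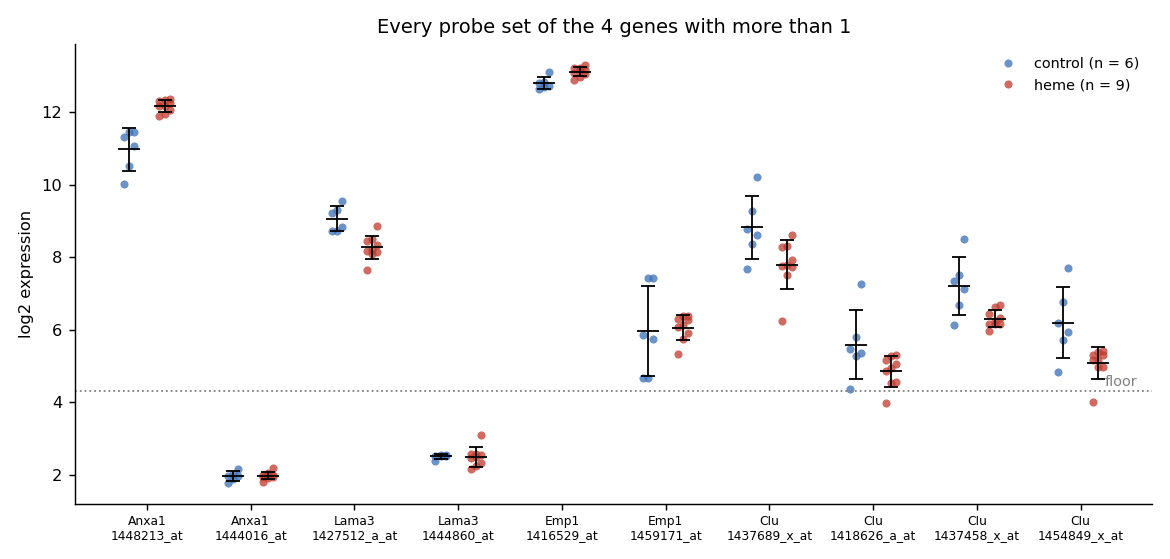
Log2 expression (y axis) on every probe set (x axis) of the 4 genes with more than 1, with 1 point per mouse (6 control, 9 heme), bars for mean and SD and a dotted line at the floor. The second probe sets of Anxa1 and Lama3 lie under the floor in all mice, Emp1 differs between its 2 probe sets (12.80 to 13.12 on one and 5.96 to 6.06 on the other, control to heme mean), and all 4 of Clu are lower with heme on average.

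Genes known from fetal-like or repairing epithelium, the setting in which Anxa1 and Clu are often named together, formed a further list. Of 14 tested non-members 8 rose, 1 fell and the median change was 0.27. Among all tested genes 27.2% were higher and 26.4% lower. The list was chosen with earlier results of these data known, so its counts are a description. Il1rn, the interleukin-1 receptor antagonist, rose by 1.73 ± 0.30 (adjusted p = 0.000203, limma) and Tinagl1, a matrix protein, by 1.31 ± 0.09 (adjusted p = 5.21e-08, limma), both without overlap. Tnfrsf12a, the receptor of the cytokine TWEAK, was called higher at 1.16 ± 0.22 (adjusted p = 0.000455, limma), but 5 of 6 controls were under the floor and 7 of 9 heme mice over it, so it was tested because of its heme values and its change is set against background. Sox9, a transcription factor of the crypt base, fell by 0.71 ± 0.13 on the log2 scale (adjusted p = 0.000334, limma), with 8 of 9 heme mice below all controls. With the smooth muscle covariate Sox9 changed by -0.46 ± 0.19 (adjusted p = 0.063, limma). Anxa3, described above, belongs to this list too.

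Target genes of YAP and TEAD, which act in regenerating epithelium, were listed together with the factors themselves. Of the factors, Yap1, Tead1 and Tead3 were tested and are in the counts. These counts varied with the setting. Of 8 tested non-members 1 rose, 4 fell and the median change was -0.19, beside 27.2% of all tested genes higher and 26.4% lower. The counts were 2 higher and 2 lower with probe sets averaged, 1 and 2 without control mice 2 and 4 and heme mouse 6, and 0 and 2 with the smooth muscle covariate. Of the 20 measured, 12 did not reach the tested set. Crim1 fell by 1.28 ± 0.25 on the log2 scale (adjusted p = 0.00053, limma) and the kinase Nuak2 by 0.48 ± 0.12 (adjusted p = 0.0034, limma). Lats2, a kinase of the Hippo pathway, fell by 0.56 ± 0.15 (adjusted p = 0.0058, limma), but with control mice 2 and 4 and heme mouse 6 left out it changed by -0.43 ± 0.18 (adjusted p = 0.058). Dock5, a guanine nucleotide exchange factor, rose by 0.31 ± 0.08 (adjusted p = 0.0049, limma), and by 0.23 ± 0.12 with the smooth muscle covariate (adjusted p = 0.158). Tead1, 1 of the factors and also called lower, was lost without control mouse 6 (-0.31 ± 0.12, adjusted p = 0.051, limma).

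Over all 10 related lists together, 25 of 63 tested non-members rose and 12 fell, with a median change of 0.11. That is beside 27.2% higher and 26.4% lower among all tested genes. The lists were chosen with earlier results of these data known, so these pooled counts are a description. Ly6d, Cldn4, Sprr2k and Tnfrsf12a, called higher, were tested because of their heme values. Lamb2, called lower, was tested because of its control values. Without control mice 2 and 4 and heme mouse 6 the counts were 22 and 11, and with the smooth muscle covariate 20 and 8.

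**Figure D4:**
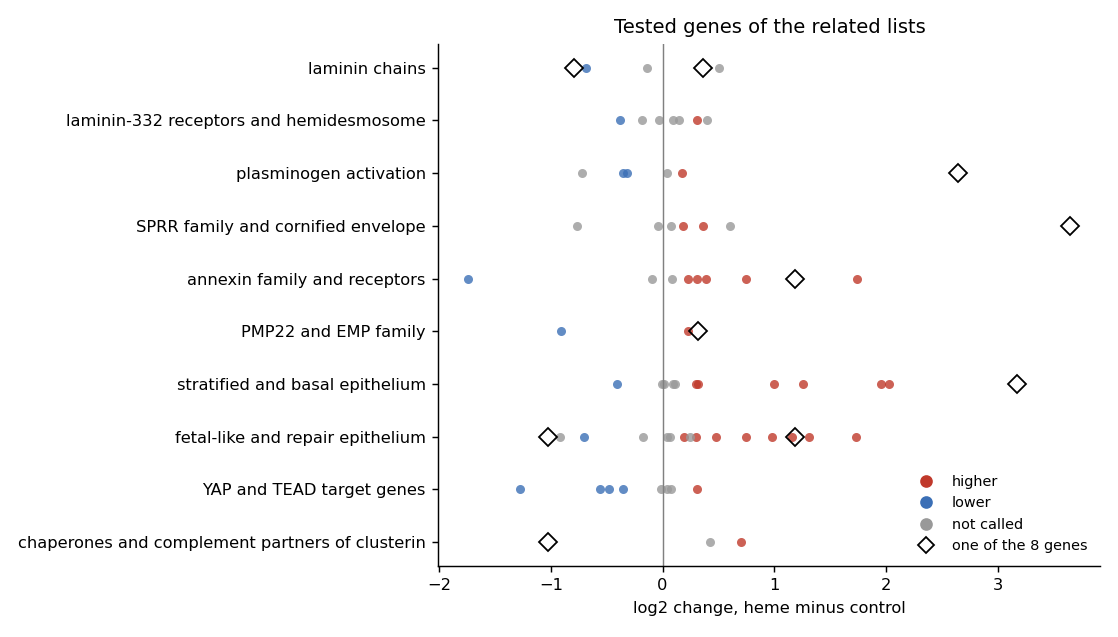
Tested genes of the 10 related lists (y axis) by their log2 difference between heme and control mice (x axis), with 1 point per gene, red for called higher, blue for called lower and grey for not called at an adjusted p of 0.05 (limma), and open diamonds for the 8 genes themselves. The stratified, annexin and fetal-like lists hold 6, 5 and 8 red points and the YAP and TEAD list 4 blue ones, the last count falling to 2 with probe sets averaged. Of all tested genes 27.2% were called higher and 26.4% lower.

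Mice of one diet also differed among themselves. For 8 of 8 genes the SD was larger in controls than in heme mice, as for 61.1% of all tested genes, but without control mice 2 and 4 this held for 3 of 8. Pairs of the genes were correlated across mice within each diet, 28 pairs per diet and 56 in all, with exact two-sided permutation p-values adjusted by Benjamini-Hochberg. After adjustment 0 pairs passed by Pearson or Spearman; 5 Pearson pairs (4 in controls, 1 in heme mice) and 1 Spearman pair had an unadjusted p under 0.05. In heme mice, Anxa1 and Plaur gave r = 0.76 (exact permutation p = 0.0194, adjusted 0.420, n = 9) and rho = 0.72 (exact permutation p = 0.0369, adjusted 0.980). Without heme mice 7 and 9 that r was 0.53. In controls, Lama3 and Lamb3 gave r = 0.87 (exact permutation p = 0.0347, adjusted 0.420, n = 6) and rho = 0.77 (exact permutation p = 0.103). Without control mice 4 and 7 that r was 0.94 (exact permutation p = 0.125). In heme mice the same laminin pair gave r = 0.36. The other control pairs with an unadjusted p under 0.05 were Sprr1a with Lama3 (r = -0.84), Anxa1 with Emp1 (-0.85) and Anxa1 with Clu (0.83). Leaving out 2 mice gave -0.93, 0.43 and 0.57 for these. Leaving out 2 mice turned the sign of r in 15 of 28 control pairs and 7 of 28 heme pairs.

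**Figure D5:**
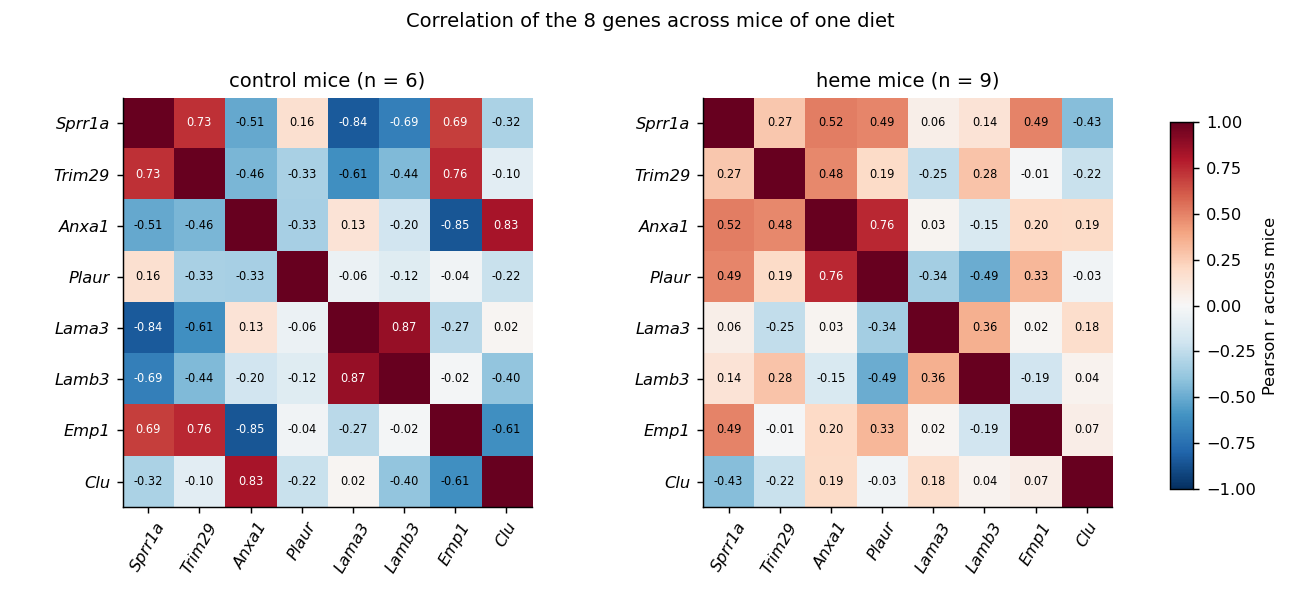
Pearson r between the 8 genes across the 6 control mice (left) and the 9 heme mice (right), coloured from -1 to 1. Control values spread from -0.85 to 0.87 and heme values from -0.49 to 0.76, and 0 pairs passed after adjustment.

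The tested genes whose levels followed each of the 8 most closely were taken as the highest r over 15 mice after subtracting the diet mean, as a description. They were picked from 9256 other tested genes, so a high r owes part of its size to the picking. Anxa1 was nearest to Anxa3 (r = 0.97) and Cyp2c68 (0.96), and Lamb3 to Igsf9 (0.91) and Bcl2l2 (0.90), the latter a survival protein of the BCL2 family. Clu was nearest to Coro1a (0.90), a coronin of leukocytes, and Ighm (0.85), an immunoglobulin heavy chain. Single controls stood out in these: mouse 4 was the lowest of all mice for Anxa1 (10.03) and Anxa3 (8.97). Control mouse 2 was the highest for Clu (10.23) and for the myeloid marker mean (10.65). Sprr1a was nearest to Mpp6 (0.88) and Creb3l3 (0.86), the latter a membrane-bound transcription factor of lipid metabolism; with Creb3l3 r was 0.94 in controls and 0.33 in heme mice. Plaur was nearest to Ccdc71l (0.87) and Cmtr2 (0.81), Lama3 to Asap2 (0.86) and Cep97 (0.79). Emp1 was nearest to Sult1d1 (0.84), a sulfotransferase, and Nipsnap3b (0.82), and Trim29 to Klc4 (0.84), a kinesin light chain, and Miga2 (0.83). The controls of Trim29 were all under the floor, so its likeness rests partly on background.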

How the data were processed

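Expression was measured in colon scrapings of 15 mice, 1 array each. The authors deposited log2 expression values per probe set, made with GCRMA 2.22.0 per the submitters' processing notes. The array's genome build is not given in the sources used here. Of the probe sets, 34958 had 1 symbol, 932 several and 9211 were not listed; a gene was represented by its brightest probe set. Heme was compared with control over 9257 genes with limma 3.58.1 in R 4.3.3 (lmFit, eBayes), Benjamini-Hochberg adjusted, threshold 0.05. Other steps ran in Python 3.11.15. Changes are heme minus control. A fold against a group wholly under the floor of 20 was computed against that floor ("at least").

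The 8 genes, the 10 related lists and the marker lists were chosen with earlier results of these data known. Named non-members were, per list, the called genes with the 3 largest rises and falls, plus a set of fixed genes, namely Itga6, Itgb4, Plau, Sprr1b, Anxa2, Fpr2, Emp2, Pmp22, Trp63, Krt5 and Lrp2 and others that are not reported here. Other genes and single mice were named after their values were seen. Marker genes of fibroblasts (0 of 7 called), myeloid cells (1 of 3 lower), lymphocytes and endothelium (0 tested), and mesothelium (0 of 1 called) were also examined. The distal position list had 0 of 3 called. RNA integrity was checked with array control probe sets: 3' minus 5' signal of Gapdh was -0.14 to 0.03 in controls and -0.15 to -0.05 in heme mice, and that of Actb 0.52 to 0.75 and 0.41 to 0.66.

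Alternatives changed the floor (none or 100), averaged the probe sets of each gene, centred arrays on their median or quantile-normalized them, used a variance trend with robust eBayes or weighted arrays, added the array number or, as a block, the replicate number, and left out each mouse, or control mice 2 and 4 with heme mouse 6. Smooth muscle and distal position scores as covariates were chosen after seeing the data. The smooth muscle score itself differed by diet, at 5.86 to 9.45 in controls and 4.51 to 6.36 in heme mice. A call lost with it therefore does not tell muscle content from diet.

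Same-numbered control and heme mice did not deviate together (correlations of -0.19 to 0.20 over 6 pairs), so numbers were not taken as pairs.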

Additional observations from a re-analysis of the deposited data

Results flagged for a closer look

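Heme mouse 7 lay far below the other heme mice on 2 of the 4 Clu probe sets. It was at 6.24 on the brightest probe set, where the other 8 heme mice ran from 7.50 to 8.61, and at 4.0 on another, where they ran from 4.99 to 5.41. The gap to the nearest mouse exceeded the critical value of Dixon's outlier test in both. In all 24 groups (12 probe sets over the floor, 2 diets) were examined and 2 stood out; chance flags about 1 in 20 groups. The 2 probe sets report the same gene in the same mice and are not independent.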

How the results depend on the processing

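Over 27 alternatives (26 for Trim29, which was not tested at a floor of 100), the 8 genes kept their direction in all 215 values and their side of the threshold in 209. They were selected on this contrast, so these counts describe the settings and are no evidence of stability. The 6 losses were Clu without control mouse 2 (-0.75), without control mouse 7 (-0.94) and with the smooth muscle covariate (-0.14); Emp1 with probe sets averaged (0.21) and with that covariate (0.19); and Lamb3 with that covariate (0.22). The number of the 8 genes called lower was 2, was 1 to 2 with each mouse left out, and was 1 with the smooth muscle covariate; the cause was not tested. Averaging probe sets gave 0.60 for Anxa1 and -0.40 for Lama3, since each has a probe set at background. With the replicate number as a block, 6 of the 8 genes were called higher and 2 lower, and 3964 of all genes were called in place of 4961. Under that block Anxa3, Anxa8, Gja1, Plgrkt and Pmp22 were no longer called. The same numbers do not pair the mice: 2 of 6 mice correlated best with their own number. Signal near the floor limits Trim29, Ly6d, Tnfrsf12a, Sprr2k, Cldn4, Lamb2 and Lamc1.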
